A study of Mus musculus with 6 samples.

Results

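Tryptophan, kynurenine and NAD pathway enzymes were followed in the livers of Lkb1KOlivad mice (KO) and control mice (WT), as 10 genes out of the 19938 with a named probe set on the arrays: *Tdo2*, *Ido2*, *Afmid*, *Kmo*, *Kynu*, *Haao*, *Qprt*, *Acmsd*, *Aadat* and *Ddc*. They were taken by name, for the steps their products catalyse in tryptophan catabolism. No rule on their values was used, but earlier results of these data were known when they were chosen. All 10 were measured, each by 1 probe set, and none was removed by a filter. The KO mice were Lkb1 fl/fl;TTR-CreTam animals, in which a tamoxifen-inducible Cre recombinase under the transthyretin promoter deletes floxed *Lkb1* in adult hepatocytes. The WT mice were littermates that carry the same floxed *Lkb1* alleles but no Cre, so a difference between the groups includes any effect of Cre itself. Both groups are female in the labels, were on the FVB/N background and received tamoxifen as adults, and the deletion does not extend to the other cells of the liver. The labels give no nutritional state, and the paper describes these livers as fasted. One array was hybridized per mouse, for KO mice B253, B304 and B305 and for WT mice B256, B267 and B302.

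Liver disposes of most dietary tryptophan through the kynurenine pathway. The indole ring is opened by a dioxygenase, the product is deformylated to kynurenine, and kynurenine is hydroxylated and cleaved to 3-hydroxyanthranilate. Opening of that second ring gives an unstable semialdehyde at which the pathway forks, either closing on its own to quinolinate, the precursor of NAD, or being decarboxylated and burned by way of glutaryl-CoA. Side branches lead to kynurenic acid and, outside the kynurenine pathway, to serotonin and tryptamine.

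The values were log2 RMA signals, in which a difference of 1 is a doubling. Array medians lay between 5.03 and 5.08, and with 6 arrays the median half-width of a 95% interval, over all genes, was 0.32 log2 units. *Stk11*, which encodes Lkb1, had log2 signals of 6.52, 6.42 and 6.48 in KO livers, against 8.24, 8.13 and 7.96 in WT livers. *Stk11* fell by 1.64 on the log2 scale (limma, adjusted p = 0.00705). It was the 1 gene called over all genes, or 0.00502% of those tested. The call was lost in the methods' t-test and when any mouse other than WT B302 was left out, with *Stk11* staying between -1.66 and -1.57 in those fits without a mouse. Probe sets were named from the annotation of the preceding version of the array that the methods name. The mouse numbers fall into a first series (KO B253, WT B256 and B267) and a second (KO B304 and B305, WT B302), both of which hold both groups, and differences within each series are given beside the pooled ones. Nothing in the labels says what the series are.

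Each of the 10 enzymes had a higher mean signal in KO livers than in WT livers, by log2 fold changes of 0.10 to 0.94 with a median of 0.21. Over all 19938 genes the median was 0.0049 and 51.6% lay above 0. The enzymes were brighter than most genes, from percentile 83.8 (*Ido2*) to 99.7 (*Tdo2*) of mean signal. No share above 0 was taken among genes of like signal. None of the 10 passed the test, each having an adjusted p of 0.9997 from limma with Benjamini-Hochberg adjustment over all genes. At the unadjusted threshold of 0.05, 1 of the 10 was higher (*Qprt*) and 0 were lower, where 1.52% of all genes were higher and 1.51% lower. The 3 KO signals lay above the 3 WT signals for 2 of the 10 (*Kynu* and *Qprt*), where 3.46% of all genes had this order, and below them for 0 of the 10, against 3.7% of all genes. The methods' t-test placed 1 of the 10 (*Kynu*) under the unadjusted threshold and 0 after adjustment. All 10 differences stayed above 0 after quantile normalization and after centring of the arrays on their medians. The exact permutation test quoted for single genes is two-sided and cannot go below 0.1 with 3 mice against 3. 

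**Figure D1:**
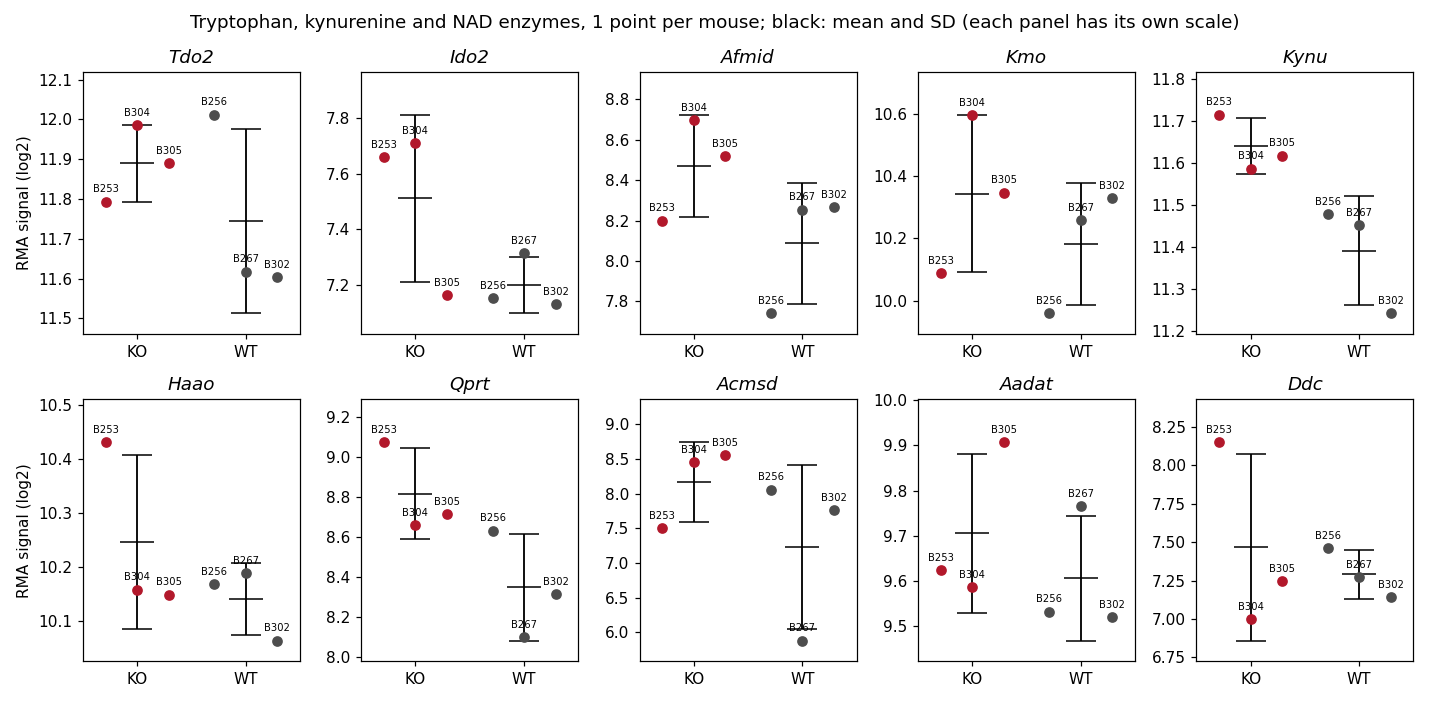
RMA signal (log2, vertical axis) of each enzyme in KO livers (red) and WT livers (grey), 1 point per mouse with its number, with black bars for the group mean ± SD. Each panel has its own scale. The groups separate for *Kynu* and *Qprt* and overlap for the other 8.

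Tryptophan enters the pathway through *Tdo2* (probe set 10498921), the haem dioxygenase of hepatocytes that opens the indole ring and sets the rate of the pathway in liver. Its log2 signal was 11.79, 11.99 and 11.89 in KO livers B253, B304 and B305, against 12.01, 11.62 and 11.60 in WT livers B256, B267 and B302. WT B256 was the highest of the 6 mice, whereas the other 2 WT mice lay below every KO mouse. The log2 fold change was 0.15 (95% interval -0.18 to 0.47, exact permutation p = 0.4). It was -0.021 within the first series and 0.33 within the second.

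*Ido2*, a relative of the interferon-induced dioxygenase *Ido1* that is expressed in liver and acts only weakly on tryptophan, is the other entry enzyme of the set (probe set 10577645). *Ido2* had log2 signals of 7.66, 7.71 and 7.17 in KO livers, against 7.15, 7.32 and 7.13 in WT livers. KO B253 and B304 were above all WT mice, and KO B305 lay among them. *Ido2* had a log2 fold change of 0.31 (95% interval -0.056 to 0.68, exact permutation p = 0.2), with 0.42 within the first series and 0.31 within the second.

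*Afmid*, the formamidase that releases kynurenine from the dioxygenase product, had log2 signals of 8.20, 8.70 and 8.52 in KO livers, against 7.74, 8.25 and 8.27 in WT livers (probe set 10382985). KO B304 and B305 exceeded every WT mouse, and KO B253 fell 0.067 short of the highest WT mouse. *Afmid* had a log2 fold change of 0.38 (95% interval -0.036 to 0.81, exact permutation p = 0.3).

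The next step is hydroxylation of kynurenine on the outer mitochondrial membrane by *Kmo* (probe set 10352000). Its log2 signal was 10.09, 10.60 and 10.35 in KO livers, against 9.96, 10.26 and 10.33 in WT livers. The log2 fold change was 0.16 (95% interval -0.21 to 0.53, exact permutation p = 0.4), and it was -0.020 within the first series and 0.14 within the second. *Kmo* and *Afmid* ordered the 6 mice alike, with KO B304 highest and WT B256 lowest for both. Their signals had a Pearson r of 0.93 over the 6 mice, the highest of the 45 pairs of the enzymes.

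*Kynu*, the pyridoxal phosphate-dependent kynureninase that cleaves the side chain of 3-hydroxykynurenine as alanine, separated the groups (probe set 10471912). Its log2 signal was 11.71, 11.59 and 11.62 in KO livers, against 11.48, 11.45 and 11.24 in WT livers. The lowest KO mouse was 0.11 above the highest WT mouse. *Kynu* averaged 11.64 ± 0.067 in KO livers and 11.39 ± 0.13 in WT livers (SD, n = 3 each), a log2 fold change of 0.25 (95% interval -0.020 to 0.52, exact permutation p = 0.1). The difference was 0.25 within the first series and 0.36 within the second, and lay between 0.17 and 0.36 over all 16 alternatives.

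*Haao* encodes the iron dioxygenase that opens the ring of 3-hydroxyanthranilate (probe set 10453260). *Haao* had log2 signals of 10.43, 10.16 and 10.15 in KO livers, against 10.17, 10.19 and 10.06 in WT livers. KO B253 stood above the rest, and the other 2 KO mice lay within the range of the WT mice. The log2 fold change was 0.11 (95% interval -0.18 to 0.39, exact permutation p = 0.6), and 0.013 when KO B253 was left out.

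At the fork, *Qprt* draws quinolinate into NAD synthesis by converting it to nicotinic acid mononucleotide, and *Acmsd* decarboxylates the semialdehyde before it can close to quinolinate. These were the enzymes with the largest differences of the set. The promoter of *Qprt*, the 1 enzyme under the unadjusted threshold, is shown as the 250 bases before the RefSeq gene start on build GRCm38.p6, at chr7:127122030-127122279 on the minus strand. It is all in lower case because it held none of the 6 motifs searched.
Qprt: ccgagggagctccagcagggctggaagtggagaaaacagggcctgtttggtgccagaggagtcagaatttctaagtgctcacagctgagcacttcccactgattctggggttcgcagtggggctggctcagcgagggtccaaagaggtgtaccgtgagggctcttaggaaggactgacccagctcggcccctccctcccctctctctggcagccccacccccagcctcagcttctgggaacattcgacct

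RefSeq promoters were examined for 7 of the 10 genes (*Tdo2*, *Afmid*, *Kmo*, *Haao*, *Qprt*, *Aadat* and *Ddc*), with 2 for *Ddc*. AGGTCA, a half-site of nuclear receptors, was on either strand in 3 of these 8 windows (*Tdo2*, *Haao* and 1 of *Ddc*) and in 14% of 32851 windows of the same length. The TATA box TATAAA was in 2 (*Tdo2* and 1 of *Ddc*, where it overlaps AGGTCA by 1 base) and in 12.4% of windows. The glucocorticoid receptor half-site AGAACA was in 1 (*Haao*) and in 16.1% of windows. The cAMP response element TGACGTCA (1.55% of windows), the Foxo element GTAAACA (3.17%) and the E-box CACGTG (6.02%) were in 0 of the 8, and all motifs were searched on both strands. A match describes the letters of the window only.

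*Qprt* (probe set 10568169) had log2 signals of 9.08, 8.66 and 8.71 in KO livers, against 8.63, 8.10 and 8.31 in WT livers. Every KO mouse was above every WT mouse, although KO B304 exceeded WT B256 by only 0.029. *Qprt* averaged 8.82 ± 0.23 in KO livers and 8.35 ± 0.27 in WT livers (SD, n = 3 each), a fold of 1.38 (95% interval 1.06 to 1.81) and a log2 fold change of 0.47 (exact permutation p = 0.1). Its unadjusted p from limma was 0.0241 with an adjusted p of 0.9997, and *Qprt* ranked 268 among all genes by this p. The unadjusted p rose above 0.05 without KO B253 (0.092), without WT B267 (0.089) and without WT B302 (0.054), and in the methods' t-test (0.0816). The log2 fold change was 0.71 within the first series and 0.37 within the second.

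*Acmsd* (probe set 10349431) spanned the widest range of the 10 enzymes, with log2 signals of 7.51, 8.45 and 8.55 in KO livers, against 8.06, 5.88 and 7.76 in WT livers. WT B267 lay far below the other 5 mice, and KO B253 was below the remaining 2 WT mice. *Acmsd* averaged 8.17 ± 0.58 in KO livers and 7.23 ± 1.18 in WT livers (SD, n = 3 each), a log2 fold change of 0.94 whose 95% interval ran from -0.26 to 2.13 (exact permutation p = 0.3). Without WT B267 it was 0.26, and without WT B256 it was 1.35. It was 0.53 within the first series and 0.74 within the second.

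**Figure D2:**
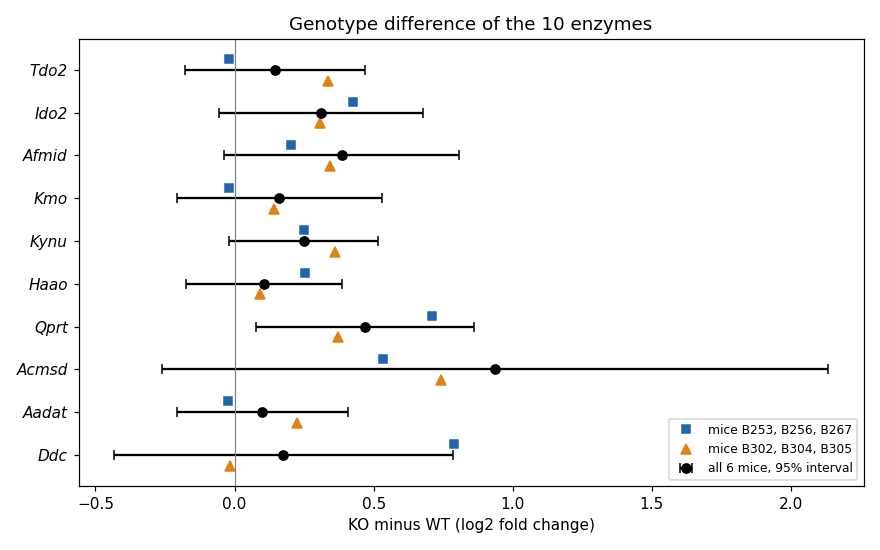
KO minus WT difference (log2 fold change, horizontal axis) of each enzyme over all 6 mice, with its 95% interval (black), and within the first (blue squares) and second (orange triangles) series of mouse numbers. The interval lies above 0 for *Qprt*, and the interval of *Acmsd* is the widest, from -0.26 to 2.13.

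Of the side branches, *Aadat* transaminates kynurenine to kynurenic acid and also handles aminoadipate in lysine breakdown (probe set 10571891). *Aadat* had log2 signals of 9.62, 9.59 and 9.91 in KO livers, against 9.53, 9.77 and 9.52 in WT livers. The groups were intermingled, with a log2 fold change of 0.10 (95% interval -0.21 to 0.41, exact permutation p = 0.5) that was -0.0012 without KO B305.

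*Ddc*, the decarboxylase that makes serotonin, dopamine and tryptamine, had log2 signals of 8.15, 7.0 and 7.25 in KO livers, against 7.46, 7.27 and 7.14 in WT livers (probe set 10384378). The KO group held both the highest mouse (B253) and the lowest (B304). *Ddc* had a log2 fold change of 0.18 (95% interval -0.43 to 0.78, exact permutation p = 0.9), -0.17 without KO B253, 0.79 within the first series and -0.018 within the second.

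Averaged over the 10 enzymes and set against the WT mean, the KO livers stood at 0.30 (B253), 0.32 (B304) and 0.29 (B305) log2 units, against 0.097 (B256), -0.11 (B267) and 0.015 (B302) in the WT livers. Without *Acmsd* the 9 other enzymes gave 0.31, 0.22 and 0.17 in the KO livers, against 0.016, 0.026 and -0.042 in the WT livers. The groups did not overlap in either average, and leaving out *Acmsd* was chosen after seeing the data. How often averages of other genes of like signal separate the groups was not tested. The groups also did not overlap in the averages of the stellate cell and sinusoidal endothelial markers given below, where KO livers were the lower. KO mice gave the highest of the 6 signals for 9 enzymes, namely 4 from B253, 3 from B304 and 2 from B305, and WT B256 gave it for *Tdo2*. The share of all genes with a KO mouse highest was not taken. The lowest signal came from WT B302 for 5 enzymes, from WT B256 for 2, from WT B267 for 2 and from KO B304 for *Ddc*. The KO livers differed in which enzymes stood high. KO B253 led in *Kynu*, *Haao*, *Qprt* and *Ddc*, KO B304 led in *Ido2*, *Afmid* and *Kmo*, and KO B305 led in *Acmsd* and *Aadat*.

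**Figure D3:**
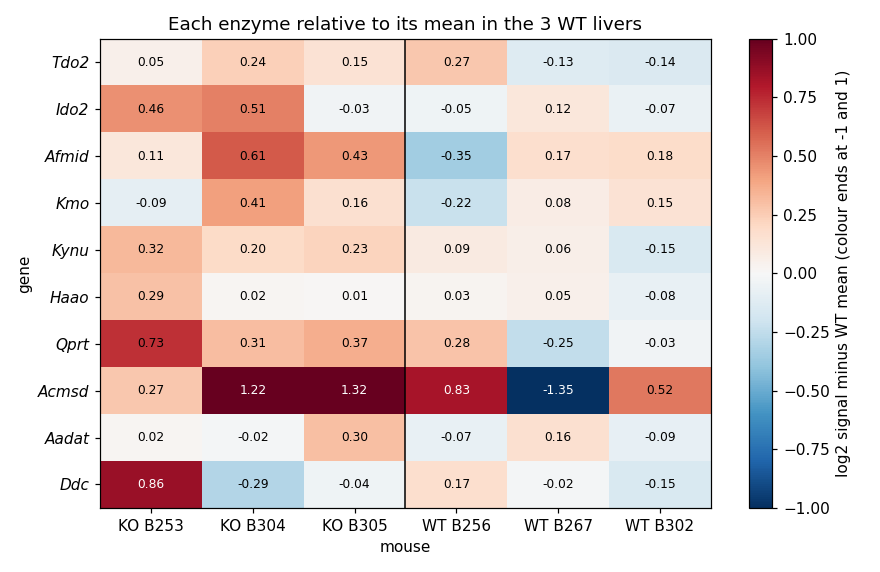
Each enzyme (rows) in each mouse (columns, KO left of WT), as the log2 signal minus that enzyme's mean in the WT livers, with the value printed in the cell. Red is above and blue below the WT mean, and the colour scale ends at -1 and 1. KO B253 reaches 0.73 for *Qprt* and 0.86 for *Ddc*, and WT B267 reaches -1.35 for *Acmsd*.

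As a description over the 6 mice, which share the genotype difference and the same arrays, the 45 pairs of enzymes had a median Pearson r of 0.23. Of these pairs, 13 were above 0.5 and 29 above 0, and the values ran from -0.69 (*Kmo* and *Ddc*) to 0.93 (*Kmo* and *Afmid*). *Haao* and *Ddc*, both highest in KO B253, had an r of 0.92, and *Kynu* and *Qprt*, the enzymes without overlap between the groups, had an r of 0.79. Among 4003 genes with a mean log2 signal of at least 7, those most like *Tdo2* over the mice were *Zhx3* (r = 0.99), *Idh3a* (0.99) and *Epc2* (0.99). Those most like *Kynu* were *Ccnl1* (r = 0.996), *Tmx2* (0.99) and *Atp5g3* (0.98). These are the highest of 4003 values over only 6 mice, and whether unrelated genes would reach them was not tested.

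The other genes of tryptophan and NAD metabolism gave 0 adjusted calls in every list examined. Of the transaminases that can act on kynurenine, with *Ido1*, 3 of 4 lay above 0, at a median log2 fold change of 0.020. *Kyat3*, a kynurenine aminotransferase, had a log2 fold change of 0.22 and its relative *Kyat1* of -0.18. *Got2*, the mitochondrial aspartate aminotransferase, was at 0.025. *Ido1* had log2 signals of 3.58 to 3.68 in KO livers, against 3.53 to 3.75 in WT livers, with a log2 fold change of 0.015.

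The glutarate branch beyond *Acmsd* had 6 of 6 genes above 0, by 9.7e-05 to 0.21 with a median of 0.11. *Aldh8a1*, the dehydrogenase that follows *Acmsd*, was at 0.21 and *Gcdh*, glutaryl-CoA dehydrogenase, at 0.16. The hydratase *Echs1* was at 0.17 and *Dhtkd1*, a dehydrogenase of 2-oxoadipate, at 0.059. The groups overlapped for all 6.

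The list for NAD synthesis outside the set had 8 of 10 genes above 0, with a median log2 fold change of 0.13. It includes the NAD kinases *Nadk* and *Nadk2* (log2 fold change 0.19), which phosphorylate NAD and do not make it. Both kinases count among those above 0. The NAD kinase *Nadk* had log2 signals of 8.40, 8.26 and 8.04 in KO livers, against 7.97, 8.003 and 7.98 in WT livers (log2 fold change 0.25, standard error 0.12, exact permutation p = 0.1). *Nmnat2*, an adenylyltransferase that completes the dinucleotide, was the other gene of this list with all KO mice above all WT mice, at a log2 fold change of 0.18. Its mean log2 signal was 5.28, beside a median of 5.26 over all genes. The gap between the groups was 0.039 for *Nadk* and 0.085 for *Nmnat2*, and 3.46% of all genes had this order. *Naprt*, which starts NAD synthesis from nicotinic acid, was at 0.29 and *Nmnat1*, the nuclear adenylyltransferase with a mean log2 signal of 4.96, at 0.22. The 2 genes of the list below 0, which were named after their values were seen, were *Nmrk2*, a nicotinamide riboside kinase, at -0.23 and *Nampt*, the salvage enzyme for nicotinamide, at -0.41 (standard error 0.37). The mean log2 signal of *Nmrk2* was 3.84. *Nampt* had a log2 signal of 7.89 in KO B253 and of 8.68 to 9.49 in the other 5 mice.

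Among 16 measured genes of NAD consumption and nicotinamide clearance, 11 lay above 0 and 5 below, with a median of 0.078. *Nnmt*, which methylates nicotinamide, had log2 signals of 10.23, 10.26 and 9.98 in KO livers, against 9.93, 8.77 and 10.25 in WT livers (log2 fold change 0.50, standard error 0.33). WT B267, the mouse lowest in *Acmsd*, was the lowest for *Nnmt* too. Of the aldehyde oxidases, which can oxidize methylated nicotinamide, *Aox3* was at 0.33 and *Aox1*, the lowest gene of the list, at -0.34. The poly(ADP-ribose) polymerase *Parp1* was at 0.12.

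Serotonin and indoleamine enzymes other than *Ddc* had a median of 0.016 over 7 measured genes, with *Maoa* at 0.19, *Maob* at 0.15, *Tph1* at -0.13 and *Aanat* at -0.20. The mean log2 signal of *Tph1* was 3.97. For *Aanat*, with a mean log2 signal of 4.93, all KO mice lay below all WT mice, but by only 0.0023. This order was found for 3.7% of all genes. The genes listed for tryptophan transport, not all of which are established tryptophan carriers, had a median of -0.091 over 7 genes. Of these, 1 was under the unadjusted threshold as lower, the amino acid carrier *Slc43a1*. Its log2 signal was 6.98, 7.57 and 7.75 in KO livers, against 7.93, 7.73 and 8.05 in WT livers, and KO B253 was the lowest. *Slc16a10*, an aromatic amino acid carrier, was at 0.48, *Slc7a5* at 0.16 and its partner *Slc3a2* at -0.20.

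Kynurenine and kynurenic acid can bind the aryl hydrocarbon receptor. This receptor, its partner genes and targets had a median of -0.049 over 8 genes, with 1 under the unadjusted threshold as lower. This was *Cyp1a2*, with log2 signals of 8.93, 8.41 and 8.51 in KO livers, against 9.02, 9.14 and 8.87 in WT livers (log2 fold change -0.39, standard error 0.16). *Tiparp* was at -0.52, *Cyp1a1* (mean log2 signal 3.84) at -0.17 and *Nqo1* at 0.28. Glucocorticoids induce *Tdo2* in liver. The glucocorticoid receptor and its targets had a median of 0.058 over 8 genes, with 1 under the unadjusted threshold as higher. This was *Tsc22d3*, a classical glucocorticoid-induced gene, with log2 signals of 7.15, 7.46 and 6.91 in KO livers, against 6.61, 6.59 and 6.39 in WT livers (log2 fold change 0.64, standard error 0.16, adjusted p = 0.9997 from limma). *Zbtb16* was at 0.44, *Dusp1* at 0.33 and *Per1* at -0.23. Of the 8 genes of this list, 4 lay above 0 and 4 below.

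**Figure D4:**
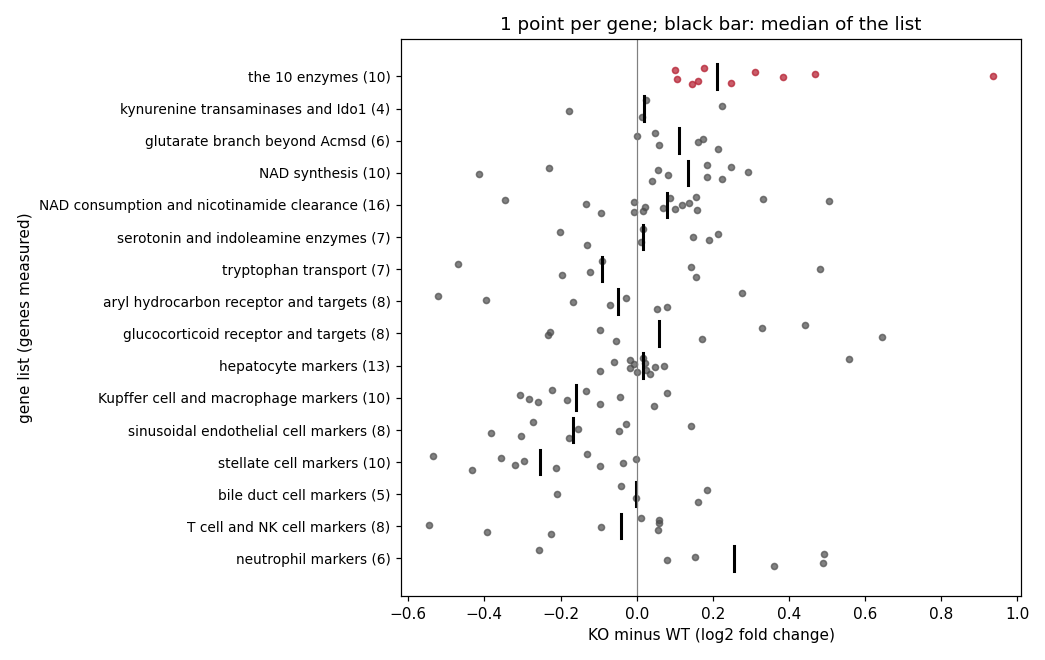
KO minus WT difference (log2 fold change, horizontal axis) of every measured gene of each list (rows, with the number of genes measured), 1 point per gene and a black bar at the median. The 10 enzymes are in red with a median of 0.21, and the stellate cell markers have a median of -0.25.

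Markers of liver cell types were set beside the enzymes. The 13 measured hepatocyte markers had a median log2 fold change of 0.017, and their mean log2 signal was 11.83 to 12.04 in KO livers and 11.79 to 12.03 in WT livers. At the unadjusted threshold 1 of the 13 was higher, where 1.52% of all genes were. The 10 stellate cell markers were all below 0, with a median of -0.25. Of them, 2 were under the unadjusted threshold, where 1.51% of all genes were lower, and 0 under the adjusted one. Their mean log2 signal was 6.18 to 6.39 in KO livers and 6.46 to 6.61 in WT livers, so these ranges did not overlap. The 8 sinusoidal endothelial markers, 7 of them below 0, had 6.49 to 6.55 in KO livers and 6.56 to 6.90 in WT livers. Kupffer cell and macrophage markers, 8 of 10 below 0, had 6.94 to 7.27 in KO livers and 6.84 to 7.51 in WT livers. Medians were 0.26 for 6 neutrophil, -0.0017 for 5 bile duct and -0.040 for 8 T cell and NK cell markers. Of the 8 T cell and NK cell markers, 1 was lower at the unadjusted threshold. RMA signals have no true zero and no detection calls were used, so no marker can be listed as absent. In bulk liver RNA, fewer cells of a type and less RNA per cell cannot be told apart, and the part of cell composition in the differences of the enzymes was not tested.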

How the data were processed

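Liver RNA of 3 KO and 3 WT mice was measured with 1 array per mouse, and groups were taken from the sample labels. The deposited values are log2 signals that, per the labels, the authors made with RMA and Partek (versions not given in the sources used here). RMA includes background correction, normalization and the summary of probes, which were not repeated. The methods name other software for the arrays. Of 35556 probe sets, 21789 had 1 gene symbol in the annotation, 1621 had several and 12146 none, and 21698 symbols were updated by gene identifier. For 999 genes with several probe sets the brightest was used.

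KO and WT livers were compared with two-sided tests without covariates (lmFit and eBayes of limma 3.58.1, R 4.3.3) over all 19938 genes, with no filter on signal, Benjamini-Hochberg adjustment and a threshold of 0.05. The code was checked on simulated data with independent noise for each gene. Whether changes as small as those of most of the enzymes would be called is not reported here. The methods' t-test is stated for the study in general. The genes named were the 10 enzymes, *Stk11*, up to 4 genes of each other pathway list with the smallest unadjusted p (and *Nmrk2* and *Nampt*, added after their values were seen), and the 3 genes most correlated with each of *Tdo2* and *Kynu*. The members and lists were chosen with earlier results of these data known. Alternatives were quantile normalization, median centring, leaving out dim genes, averaging probe sets, array weights, robust eBayes with an intensity trend, the methods' t-test, the series of mouse numbers as a block or apart, and leaving out each mouse. Promoters came from RefSeq, and matplotlib 3.10.9 (Python 3.11.15) made the figures.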

Additional observations from a re-analysis of the deposited data

How the results depend on the processing

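Over all genes, the count called was 0 in the methods' t-test and 0 to 1 when a mouse was left out, against 1 as reported. The number of the 10 enzymes at an unadjusted p under 0.05 was 2 with array weights, 2 with the series of mouse numbers as a block and 0 to 2 when a mouse was left out (0 without WT B267), against 1 as reported. Their median log2 fold change was 0.32 within the second series (KO B304 and B305, WT B302), against 0.21 as reported, and 0.18 without *Acmsd*, an alternative chosen after seeing the data. Within the first series (KO B253, WT B256 and B267) 3 enzymes fell below 0, *Tdo2* at -0.021, *Kmo* at -0.020 and *Aadat* at -0.025, and within the second *Ddc* did at -0.018. When a mouse was left out, *Ddc* ran from -0.17 to 0.41 and *Aadat* from -0.0012 to 0.18. *Afmid*, *Kynu*, *Haao*, *Qprt*, *Acmsd* and *Ido2* stayed above 0 in every alternative run. The smallest adjusted p of any enzyme over the alternatives was 0.964. The causes of these changes were not tested. With array weights and with the block, where 2 enzymes were under the unadjusted threshold, more genes were under it over all genes too. Array weights gave 323 genes higher and 375 lower, and the block gave 589 and 412. As reported, there were 303 higher genes and 1.51% of all genes lower. Leaving out dim genes, which tests fewer genes, gave 152 genes higher and 134 lower at the unadjusted threshold. Without WT B256 there were 521 higher genes, and without KO B304 there were 199 higher and 189 lower. No paired analysis was possible because the labels give no replicate number that pairs a KO mouse with a WT mouse. For 9 of the 10 enzymes the 95% interval holds both 0 and a log2 fold change above 0.3.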
